A study of Mus musculus with 96 samples.

Results

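Microglia of the hippocampus of old mice were compared 48 h after abdominal surgery with those of old control mice. The comparison took in the 9 hippocampus libraries titled old, surgery and 48 h and the 8 titled old, control and 48 h, 17 of the 96 libraries of the series, with each column matched to its title through the library name in the sample description. All animals were wild type (WT). The old animals of both groups were 20 to 22 months old, and what the controls underwent is not stated. Each library held 1000 sorted cells (Ly6C negative, CD11b positive, Fcrls positive) sequenced by Smart-seq2, a method that copies whole transcripts from little input. For comparison the text uses the hemisphere libraries of the same 17 animals, the 7 old surgery and 8 old control hippocampus libraries taken at 6 h, and the 4 surgery and 4 control hippocampus libraries of young mice (3 to 5 months) taken at 48 h. In 2 of the old surgery libraries and 2 young control libraries at 6 h low counts run in steps other than 1, and the main results that rest on them are given with and without these 4.

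Microglia are the resident macrophages of the brain parenchyma. At rest they express a set of identity genes such as P2ry12, a receptor for nucleotides released by damaged cells, and Tmem119, a membrane protein used as a microglial marker. Signals from injured tissue or from the periphery can move them towards inflammatory, interferon-driven or phagocytic states, and adrenal glucocorticoids restrain their cytokine genes. The hippocampus, which serves memory, is a region often studied for cognitive decline after operations in aged animals.

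No gene passed the threshold. Of 11985 genes tested with edgeR, none had a Benjamini-Hochberg adjusted p (BH) below 0.05, and the lowest BH was 0.9999. At an unadjusted p below 0.05 there were 432 genes (3.6% of those tested), 209 higher after surgery (1.74%) and 223 lower (1.86%). DESeq2 and limma voom also called 0 genes. The median log2 fold change over all genes tested was -0.01, and 49% of them lay above 0. No gene had 9 surgery values that were all apart from the 8 control values. The genes named below are therefore described by their values, and none of them is a called change. Values in brackets are log2 fold changes, surgery over control, ± SE derived from the edgeR F statistic.

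The data bound the size of a difference in well-expressed genes. The 95% interval of the log2 fold change lay within 1 of 0 for 77.24% of the genes tested, and the median half-width of the interval was 0.54. That share was 95.04% among the 484 genes with a mean log2 CPM (CPM, counts scaled to library size after TMM normalization) of 6 or more. It was 39.57% among the 1802 genes below a log2 CPM of 2, where differences of this size were mostly not detectable at this depth. Total counts ran from 2281760 to 3299071 per library, but 13 gene models, 11 of them predicted Gm models, held 70.06% to 78.24% of each total, which left 544437 to 833358 counts for all other genes. Libraries correlated across genes, which are not independent replicates, with a median r of 0.88 within either group and 0.88 between them. Of 5 library measures compared by an exact permutation test (24310 assignments, two-sided), the share of Malat1, a nuclear RNA, differed most, at 0.452% ± 0.080% (SD, n = 8) of the counts outside the 13 models in controls and 0.381% ± 0.048% (n = 9) after surgery (p = 0.0246, BH 0.123). The other 4 measures had p of 0.187 or more.

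The microglial label held against the markers. As CPM per kilobase of exon, computed over the counts outside the 13 models, the 22 homeostatic genes of microglia stood at a median of 304.9. On that scale 13 lists of markers for other cells had medians from 0.185 to 1.21, although single markers stood higher, such as Ttr of the choroid plexus at 400.2, Trf of oligodendrocytes at 370.1 and Ighm of B cells at 169.8. Of 130 marker genes, 25 were abundant enough to test and none had an unadjusted p below 0.05. Summed over its members, the choroid plexus list varied most between libraries, from 25.8 to 1933 in controls and from 32.6 to 5043 after surgery, both as CPM over the counts outside the 13 models, and its part in the results was not tested. In bulk libraries fewer cells of a type and less RNA per cell cannot be told apart.

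The homeostatic genes had fold changes near 0 with narrow intervals. All 22 members were tested, 14 lay above 0, none had an unadjusted p below 0.05, and their median log2 fold change was 0.03. P2ry12 (chr3:59216272-59262871) ran from 402 to 750 CPM in controls with a median of 614, and from 487 to 680 CPM after surgery with a median of 612. The surgery libraries lay wholly inside the control range, and the log2 fold change was -0.0034 with a 95% interval from -0.28 to 0.27. Tmem119 (chr5:113793729-113800516) had medians of 688 and 703 CPM and an interval from -0.28 to 0.21. Cx3cr1, the receptor for the neuronal chemokine fractalkine, had an interval from -0.26 to 0.31. Sall1, a transcription factor that keeps microglial identity, stood at -0.09, and Csf1r, the receptor on which microglial survival depends, at 0.15. The direction of the list's mean log2 CPM turned with the sort number in the library names. Up to number 90 it was 8.07 in 4 controls and 8.27 in 3 surgery libraries. From number 93 on it was 8.30 in 4 controls and 8.21 in 6 surgery libraries.

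**Figure D1:**
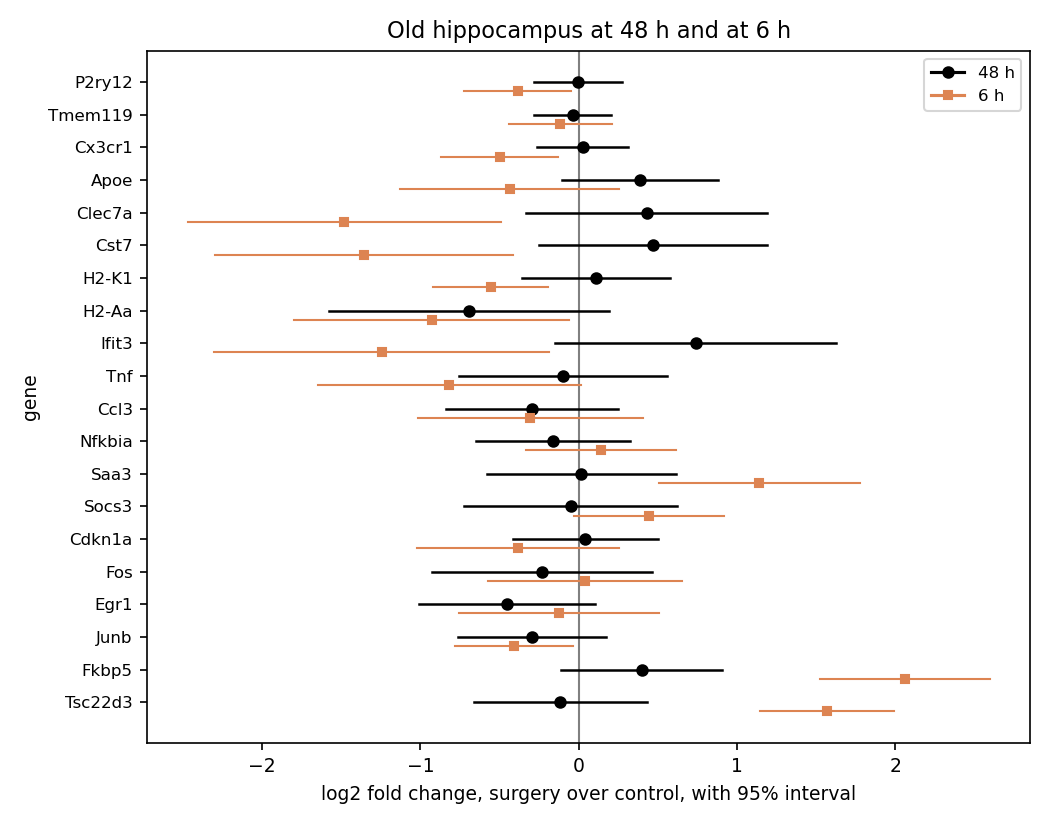
Log2 fold changes of 20 genes with their 95% intervals (x axis) in the old hippocampus, surgery over control, at 48 h (black circles, 9 against 8 libraries) and at 6 h (orange squares, 7 against 8). At 48 h every interval shown crosses 0, while at 6 h Fkbp5 and Tsc22d3 lie at 2.06 and 1.57.

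Fkbp5, Tsc22d3 and Ddit4, targets of the glucocorticoid receptor, passed the threshold in the old hippocampus at 6 h, where edgeR called 11 genes higher and 1 lower of 13703 (0.0876%). Without the 4 libraries with stepped counts it also called 12, these 3 among them, at 2.09 ± 0.28 for Fkbp5, 1.504 ± 0.23 for Tsc22d3 and 4.04 ± 0.48 for Ddit4 (log2 fold change ± SE). None of the 3 passed it at 48 h. Fkbp5 (chr17:28399094-28517527) encodes an Hsp90 partner that lowers the receptor's affinity for hormone and is induced by the same receptor. It ran from 7.95 to 18.9 CPM in the controls with a median of 11.4, and from 10.1 to 24.2 CPM after surgery with a median of 15.3. Surgery replicates 1, 9 and 4 lay above every control and the other 6 inside the control range. The log2 fold change was 0.40 ± 0.25 (SE), with an interval from -0.11 to 0.91. At 6 h the gene had medians of 13.8 CPM in controls and 61.2 CPM after surgery, all 7 surgery libraries lay above all 8 controls, and the log2 fold change was 2.06 ± 0.26 (edgeR BH 0.000169).

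Tsc22d3 (chrX:140539528-140600659), the glucocorticoid-induced leucine zipper that represses inflammatory transcription, had medians of 39.1 CPM in controls and 36.8 CPM after surgery at 48 h. The surgery libraries spread from 11.1 to 74.6 CPM, and 4 of them, replicates 1, 2, 3 and 9, lay below every control. Its log2 fold change was -0.12 ± 0.27 at 48 h and 1.57 ± 0.21 at 6 h (edgeR BH 0.00021). Ddit4 (chr10:59949669-59951834), an inhibitor of the growth kinase mTORC1, rested on a mean of 0.875 counts per control library and 2.44 per surgery library at 48 h. Its log2 fold change was 1.37 ± 0.84 with an interval from -0.36 to 3.10, against 4.01 ± 0.48 at 6 h (edgeR BH 0.000123). Of the 20 members of the glucocorticoid-induced list 14 were tested at 48 h, 7 lay above 0, and the median was -0.04. At 6 h 12 of 16 lay above 0, beside 52.5% of all genes there, with a median of 0.19, and without the stepped libraries 12 of 17, with a median of 0.31. At 48 h the direction of the list's mean log2 CPM turned with the sort number in the library names. Up to number 90 it was 4.68 in 4 controls and 4.94 in 3 surgery libraries. From number 93 on it was 5.03 in 4 controls and 4.78 in 6 surgery libraries.

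Per1 (chr11:69095217-69109960), a clock gene that glucocorticoids also induce, was the list's 1 member with an unadjusted p below 0.05. It ran from 20.1 to 48.2 CPM in controls with a median of 28.3, and from 19.2 to 84.6 CPM after surgery with a median of 44.3. Surgery replicates 7, 6 and 4 lay above all controls and replicate 3 below them all (0.53 ± 0.25). In the hemisphere of the same animals its log2 fold change was -0.05. Arntl, which encodes the clock activator BMAL1, had medians of 3.61 and 4.59 CPM, 5 of 9 surgery libraries lay above all controls (0.73 ± 0.31), and its unadjusted p was below 0.05. The other 10 tested members of the clock list had unadjusted p of 0.05 or more, and the list's median was -0.03.

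**Figure D2:**
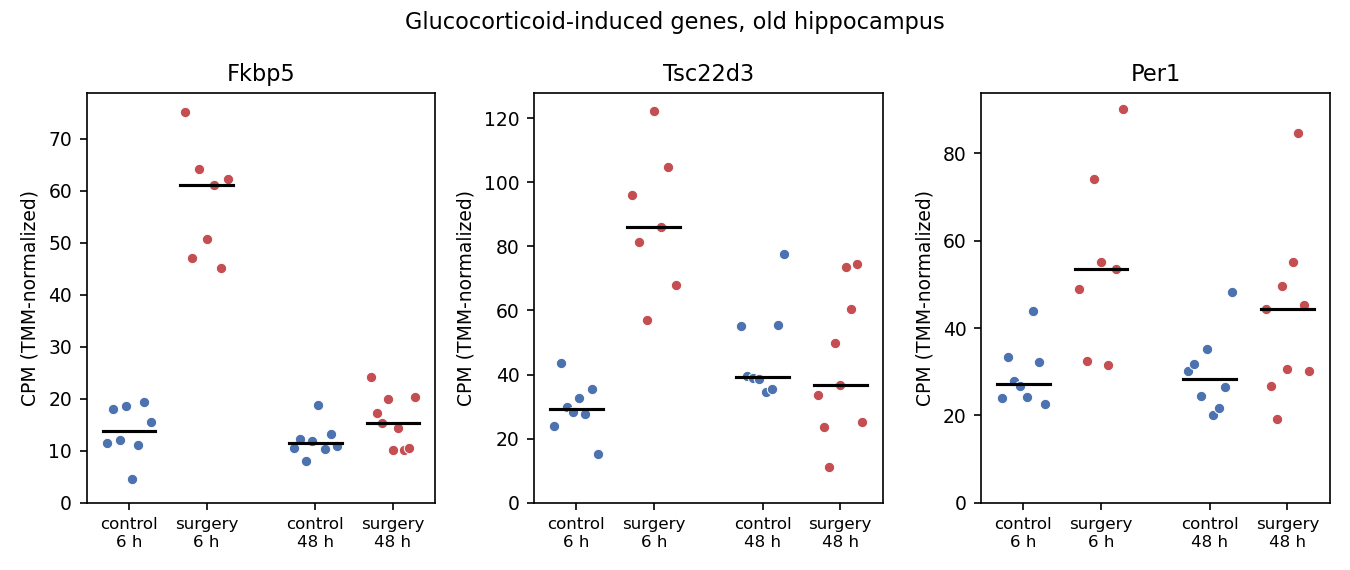
TMM-normalized CPM (y axis, from 0) of Fkbp5, Tsc22d3 and Per1 in every old hippocampus library, control (blue) and surgery (red) at 6 h (8 and 7 libraries) and 48 h (8 and 9). Black lines are group medians. The 6 h surgery points of Fkbp5 and Tsc22d3 stand clear of the controls, and the 48 h points overlap theirs.

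The difference between the times was tested directly, as the surgery effect at 48 h minus that at 6 h over all 8 hippocampus groups. With edgeR 0 of 14510 genes passed, 1009 (6.95%) had an unadjusted p below 0.05 and the lowest BH was 0.1015. DESeq2 called 6 genes in the same test, limma voom called 1, and edgeR fitted on the 4 old groups alone called 5. Without the 4 stepped libraries the edgeR count was 0, with Fkbp5 at -1.69 ± 0.38 and Tsc22d3 at -1.61 ± 0.39. Fkbp5 differed by -1.64 ± 0.36 (edgeR BH 0.1015, DESeq2 BH 0.00432, voom BH 0.0808) and Tsc22d3 by -1.66 ± 0.36 (0.1015, 0.00275 and 0.0633). Among the other genes called in at least 1 of these fits, Ppp1r21, which serves endosomal sorting, was lower at 48 h (-1.44 ± 0.32). Higher at 48 h were Il6st, which encodes the signalling chain gp130 of the IL-6 receptor family (1.47 ± 0.33), Cyb561a3, a lysosomal iron reductase (1.45 ± 0.30), and Cltc, the clathrin heavy chain (1.04 ± 0.23). Without the stepped libraries these 4 stood at -1.47 (Ppp1r21), 1.39 (Il6st), 1.51 (Cyb561a3) and 0.89 (Cltc). They were picked after their values were seen.

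The homeostatic and disease-associated lists had negative medians at 6 h and small positive medians at 48 h, as did other lists given below. Among homeostatic genes 2 of 22 lay above 0 at 6 h (median -0.22), and 5 of 22 without the stepped libraries (median -0.18). In the 48 h minus 6 h contrast 21 of 22 were positive, beside 48.4% of all genes, with a median of 0.28, and 4 of them, with 0 in the other direction, had an unadjusted p below 0.05. Without the stepped libraries 17 of 22 were positive, with a median of 0.20 and 3 such members. The disease-associated list had a median of -0.29 at 6 h (-0.22 without the stepped libraries) and 0.08 at 48 h, and 5 of 23 members had an unadjusted p below 0.05 in the contrast, all higher at 48 h (3 of 24 without the stepped libraries). Clec7a, a receptor for beta-glucans, stood at -1.48 at 6 h and 0.43 at 48 h, a difference of 1.94 ± 0.62, and Cst7, the protease inhibitor cystatin F, at -1.36 and 0.47, a difference of 1.84 ± 0.59. Without the stepped libraries the 6 h values were -1.75 and -1.02 and the differences 2.19 ± 0.59 and 1.49 ± 0.59. Neither difference passed adjustment (edgeR BH 0.457 for both genes, and 0.317 and 0.622 without the stepped libraries). Over all genes of that contrast 3.62% had such a p on the higher side and 3.34% on the lower, and the median was -0.02. Other lists shifted in the same way, such as interferon (17 of 20 positive, median 0.56) and lipid efflux (10 of 11, 0.37). The lysosome (25 of 28, 0.30) and antigen presentation lists (17 of 22, 0.28) did so as well. The glucocorticoid-induced (3 of 16, -0.38) and immediate early lists (4 of 23, -0.24) went the other way. Without the stepped libraries the medians of these lists, in that order, were 0.70, 0.31, 0.19, 0.30, -0.40 and -0.15. The animals of the 2 times differ, so no value here follows 1 animal over time.

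Immediate early genes, which are switched on within minutes of a stimulus, lay low in 4 of the 9 surgery libraries. Of 26 members 23 were tested and 3 lay above 0, beside 49% of all genes tested. The median log2 fold change was -0.31, against -0.01 over all genes. No member had an unadjusted p below 0.05 on the higher side, and 3 (13.04%) did on the lower side, beside 1.86% of all genes. These were Klf2, a zinc-finger factor that holds macrophages quiescent, Jund, a subunit of the transcription factor AP-1, and Ier5, a regulator of the heat shock factor. As the mean log2 CPM of the tested members, the list ran from 5.15 to 6.26 in the 8 controls with a median of 5.60. After surgery it ran from 4.35 to 6.24 with a median of 5.45. Surgery replicates 3, 1, 2 and 9 lay below every control, at 4.35, 4.53, 4.63 and 4.78, and the other 5 lay inside the control range.

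Fos (chr12:85473890-85477273) encodes a subunit of AP-1. In the controls it ran from 281 to 821 CPM with a median of 470. After surgery it stood at 133, 120, 127, 590, 504, 512, 609, 1040 and 194 CPM in replicates 1 to 9. The groups thus overlapped, with 4 surgery libraries below every control and 1 above, and the log2 fold change was -0.23 ± 0.34 (interval -0.93 to 0.46). Egr1, a zinc-finger factor of the same early response, ran from 442 to 880 CPM and from 114 to 945 CPM, again with 4 surgery libraries below all controls (-0.45 ± 0.27). Junb, another AP-1 subunit, had medians of 655 and 650 CPM and a surgery minimum of 225 against a control minimum of 480. Klf2 (chr8:72319033-72321656) ran from 11.0 to 25.8 CPM with a median of 21.5 in controls and from 2.69 to 21.2 CPM with a median of 13.6 after surgery. Its log2 fold change was -0.74 ± 0.30.

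**Figure D3:**
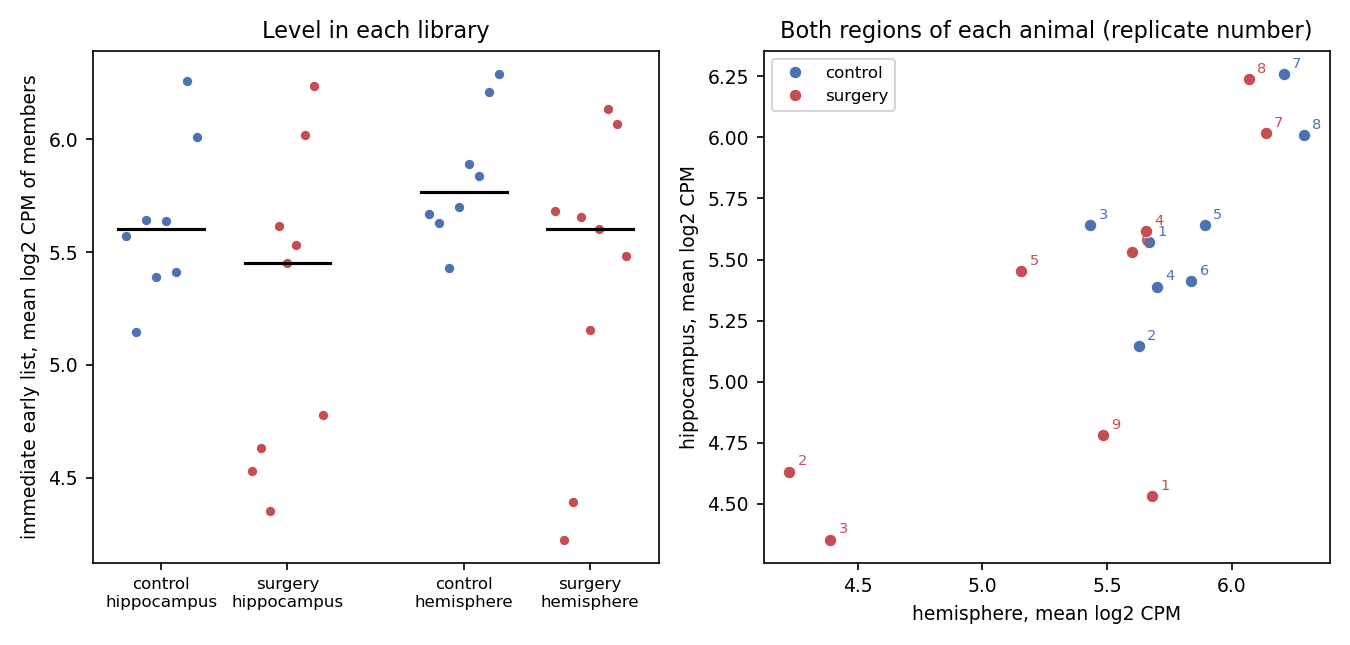
Left, mean log2 CPM of the tested immediate early genes in each library of the old 48 h animals (8 control, blue, and 9 surgery, red), by region, with medians as black lines. Right, the hippocampus value of each animal against its hemisphere value, numbered by replicate. Surgery replicates 2 and 3 lie below every control in both regions, replicates 1 and 9 in the hippocampus alone and replicate 5 in the hemisphere alone.

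The same 4 libraries were low for Dusp1, which dephosphorylates MAP kinases, for Btg2, an antiproliferative regulator of mRNA decay, and for Zfp36, which encodes the mRNA-destabilizing protein tristetraprolin. Dusp1 had medians of 409 and 452 CPM and minima of 327 and 138 CPM in controls and after surgery. Btg2 had medians of 330 and 334 CPM and minima of 210 and 82.9 CPM. Zfp36 had medians of 312 and 272 CPM and minima of 221 and 130 CPM. For each of the 3 genes those 4 surgery libraries lay below every control and 1 surgery library above, and no unadjusted p was below 0.05.

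The bases just before the start sites of these 3 genes are shown because they are among the list members, named below, that hold a response element there. They do not stand for the list or for its other low genes. The cAMP response element (CRE, TGACGTCA, the same on both strands) is bound by CREB and related factors, and the CArG box by serum response factor. The windows hold the 250 bases before the RefSeq start site (GRCm38.p6), 5′ to 3′ on the gene's strand, with the motif in capitals. All 3 lie on the minus strand, at chr17:26508473-26508722, chr1:134079156-134079405 and chr7:28379229-28379478. Dusp1 and Btg2 hold a CRE and Zfp36 a CArG box.
Dusp1: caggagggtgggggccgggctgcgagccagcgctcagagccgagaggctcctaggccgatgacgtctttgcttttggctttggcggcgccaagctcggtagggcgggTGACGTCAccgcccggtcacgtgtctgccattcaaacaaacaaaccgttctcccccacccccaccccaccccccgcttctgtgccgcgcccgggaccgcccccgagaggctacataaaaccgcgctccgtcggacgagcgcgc
Btg2: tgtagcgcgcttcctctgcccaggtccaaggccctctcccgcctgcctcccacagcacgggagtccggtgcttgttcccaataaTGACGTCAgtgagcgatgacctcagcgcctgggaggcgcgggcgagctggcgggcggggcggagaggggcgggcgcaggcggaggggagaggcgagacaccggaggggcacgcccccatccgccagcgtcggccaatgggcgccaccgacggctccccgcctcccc
Zfp36: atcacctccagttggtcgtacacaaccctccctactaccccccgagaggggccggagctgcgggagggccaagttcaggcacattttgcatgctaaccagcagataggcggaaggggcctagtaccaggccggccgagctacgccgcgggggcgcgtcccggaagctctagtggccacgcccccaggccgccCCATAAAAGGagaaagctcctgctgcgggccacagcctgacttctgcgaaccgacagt
Of 26 immediate early genes 21 had an entry, and on either strand 3 held a CRE (Btg2, Dusp1 and Maff) and 2 a CArG box (Egr2 and Zfp36). Among all 27025 genes with a window the shares were 1.77% and 1.62%. The letters are a description of the windows and say nothing of binding in these cells.

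In the hemisphere of the same animals the immediate early list lay below every control in surgery replicates 2, 3 and 5, at 4.23, 4.39 and 5.16, beside controls from 5.43 to 6.29. Replicates 1 and 9 stood at 5.68 and 5.49 there, and replicate 5 was not low in the hippocampus (5.45). Over the list 1 of 24 members lay above 0 in the hemisphere, beside 48.2% of all genes there, with a median of -0.38. The difference between the regions, tested within animals, gave a list median of 0.00, and 12 of 23 members lay above 0, beside 47.7% of all genes. In the hippocampus, the low surgery replicates 1, 2, 3 and 9 held 551888, 625764, 745353 and 833358 counts outside the 13 models, which spans nearly the whole range of the 17 libraries. Replicates 2 and 3 had the highest numbers of gene models with a count, 26208 and 26057, beside at most 25664 in the controls. Replicates 1 and 9 had mitochondrial shares of 1.19% and 1.10%, above every control (0.663% to 1.05%), and Malat1 shares of 0.296% and 0.353%, below every control. Surgery replicate 8, the highest surgery library for the list at 6.24, also had a Malat1 share below every control (0.359%). The part of these measures in the result was not tested.

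The sort number in the library names, which differs between animals, went with the difference in the hippocampus. Among animals numbered up to 90, the list stood at 5.52 in 4 controls (5.39 to 5.64) and 5.53 in 3 surgery libraries (5.45 to 5.62). Among those numbered from 93 on, it stood at 5.75 in 4 controls (5.15 to 6.26) and 5.09 in 6 surgery libraries (4.35 to 6.24). Refitted within these ranges, the list's median log2 fold change was 0.09 in the first and -0.53 in the second. The 4 low surgery libraries came from the 4 surgery animals with the highest sort numbers, 99 and above. The surgery animals numbered 93 and 95 stood at 6.02 and 6.24, and the 2 controls numbered above 99 at 5.57 and 5.15. What the sort number stands for beyond the order of the names is not given, and its part in the result was not tested.

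The ex vivo activation, heat shock, unfolded protein and cytokine lists also had negative medians, while the STAT3 and acute phase list (0.00, 5 of 10 members above 0) and the toll-like receptor list (0.03, 10 of 20) lay near 0. The ex vivo activation list, genes that microglia switch on while tissue is dissociated, overlaps the immediate early list. It had 1 of 19 members above 0, beside 49% of all genes tested, and a median of -0.30. Its median was 0.10 among animals sorted up to number 90 and -0.52 in those sorted later, and it was -0.18, -0.19 and -0.47 without control replicate 7, surgery replicate 3 and surgery replicate 8. Heat shock genes had 1 of 14 members above 0 and a median of -0.14, and the unfolded protein and integrated stress response list 2 of 13 and -0.12. The heat shock median was -0.04 up to number 90 and -0.29 later, and -0.07 without control replicate 1 or -0.08 without surgery replicate 3. The unfolded protein median turned to 0.06 up to number 90, against -0.31 later. It was -0.05, -0.06 and -0.07 without surgery replicate 3, surgery replicate 2 and control replicate 7. No heat shock or unfolded protein gene had an unadjusted p below 0.05. Hspa8, the constitutive Hsp70 chaperone, had medians of 471 and 368 CPM, with 3 surgery libraries below every control (-0.27 ± 0.16).

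Cytokine and NF-kB genes gave 3 of 19 members above 0, beside 49% of all genes tested, and a median of -0.15. None had an unadjusted p below 0.05. The median turned to 0.19 among animals sorted up to number 90, against -0.34 later. It was -0.06, -0.08 and -0.09 without surgery replicate 3, surgery replicate 2 and control replicate 7. Tnf (chr17:35199381-35202007), the cytokine tumour necrosis factor, ran from 15.7 to 45.04 CPM in controls with a median of 22.9, and from 3.25 to 38.0 CPM after surgery with a median of 26.9. The groups overlapped, with surgery replicates 3 and 2 below every control, and the interval ran from -0.76 to 0.56. Ccl3, a chemokine that draws leukocytes, had medians of 75.8 and 57.8 CPM and 4 surgery libraries below all controls (-0.30 ± 0.27). Nfkbia, the inhibitor that NF-kB induces against itself, had an interval from -0.65 to 0.32. Il1b, the cytokine interleukin-1 beta, had a mean of 3.0 counts per control library and 2.33 per surgery library and was not tested. The acute phase gene Saa3 stood at 4.35 ± 1.96 CPM (SD, n = 8) in controls and 4.41 ± 2.30 CPM (n = 9) after surgery, with an interval from -0.58 to 0.61. Lcn2, another acute phase gene, had a mean of 0 counts in controls and 1.67 after surgery, and Socs3, the feedback inhibitor of STAT3, an interval from -0.72 to 0.62.

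**Figure D4:**
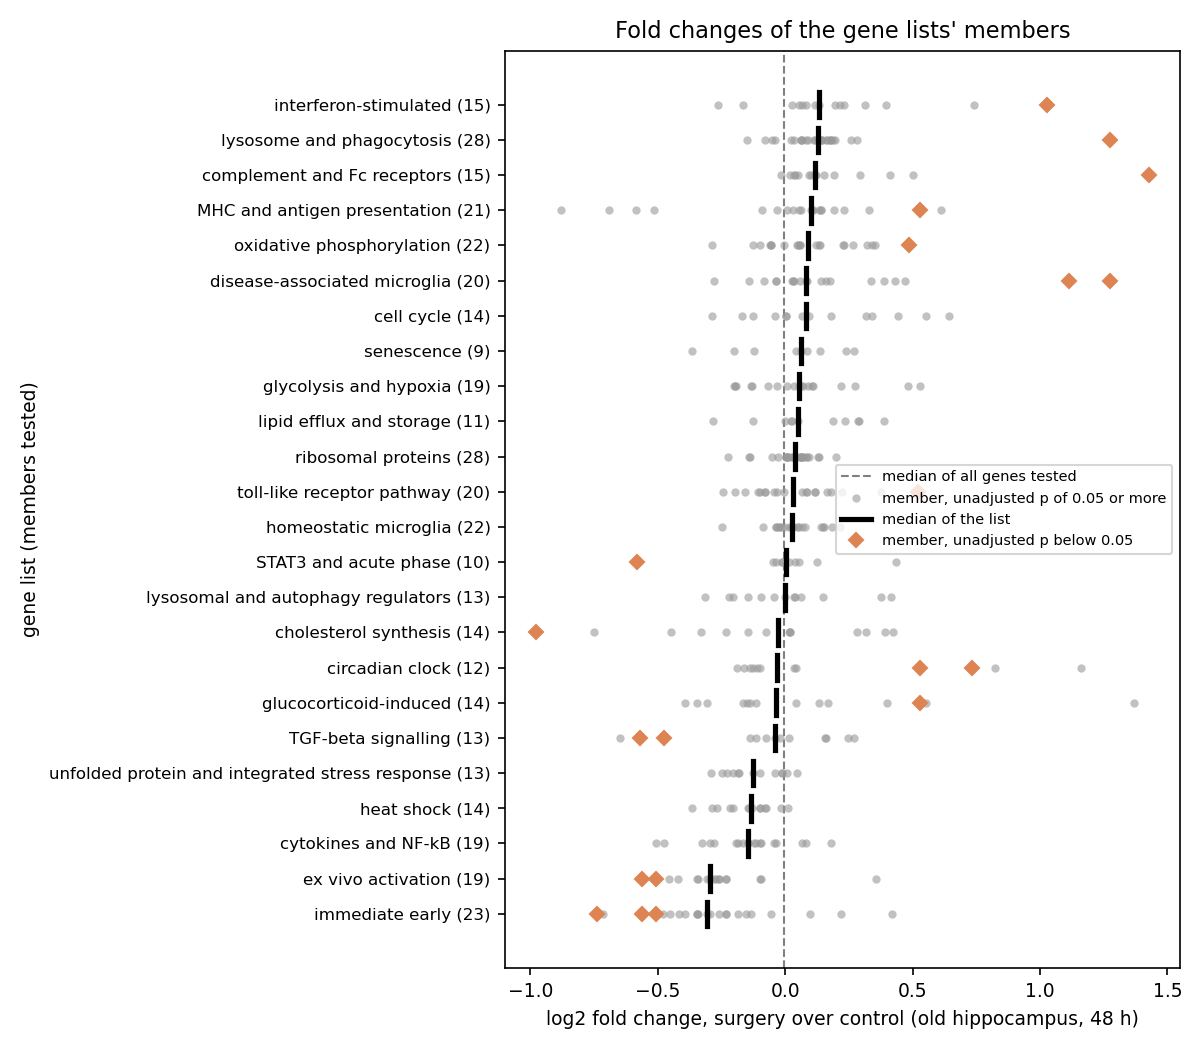
Log2 fold change (x axis) of each tested member of the 24 programme lists (rows, number tested in brackets), surgery over control in the old hippocampus at 48 h. Orange diamonds have an unadjusted p below 0.05, grey points do not, black bars are list medians and the dashed line is the median of all genes tested. Medians run from -0.31 for immediate early genes to 0.13 for interferon-stimulated genes, the latter -0.01 without surgery replicate 1.

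Lysosomal, complement and disease-associated genes had positive medians of small size. Over the 24 programmes 374 of 456 genes were tested, of which 9 (2.41%) had an unadjusted p below 0.05 on the higher side and 7 (1.87%) on the lower, near the 1.74% and 1.86% of all genes tested. The lysosome and phagocytosis list had 24 of 28 members above 0, beside 49% of all genes tested, and a median of 0.13. In it 1 member, Axl, had such a p. The cathepsins Ctsb (0.20), Ctsd (0.16), Ctsl (0.26) and Ctss (0.18), proteases of the lysosome, were each above 0. Complement and Fc receptor genes had 14 of 15 above 0 and a median of 0.12. Among them C1qa and C1qb, which form the recognition molecule of the classical pathway with C1qc, stood at 0.09 and 0.10. The lysosome median was 0.29 among animals sorted up to number 90 and -0.01 in those sorted later, and the complement median 0.22 and -0.02. Without control replicate 5 the medians were 0.07 and 0.05.

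Axl (chr7:25757273-25788705), a receptor kinase with which phagocytes take up dying cells, ran from 3.61 to 6.99 CPM in controls with a median of 4.80, and from 1.71 to 29.6 CPM after surgery with a median of 12.1. Surgery replicates 3, 1, 5, 2, 6 and 4 lay above all controls, replicates 7 and 9 among them and replicate 8 below. The log2 fold change was 1.27 ± 0.51 (interval 0.22 to 2.33). Itgax (chr7:128129547-128150657), which encodes the integrin CD11c and marks microglia of the disease-associated state, had medians of 2.03 and 4.60 CPM, and 6 of 9 surgery libraries lay above every control (1.11 ± 0.37). It rested on a mean of 5.88 counts per control library and 13 per surgery library. In the hemisphere of the same animals Axl stood at -0.36 and Itgax at -0.15. The difference between the regions was 1.21 ± 0.52 for Axl and 1.25 ± 0.52 for Itgax. Both had an unadjusted edgeR p below 0.05, as had 3.13% of all genes in that contrast, and neither passed adjustment. These differences reuse the hippocampus values through which the 2 genes were named, so they are no separate support.

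The 24 disease-associated genes, a state described in models of neurodegeneration, included 20 tested, with a median of 0.08 (0.05 without surgery replicate 1). Of these 15 lay above 0, beside 49% of all genes tested. Axl and Itgax were the 2 (10%) with an unadjusted p below 0.05, both higher, beside 1.74% of all genes on that side. Apoe (chr7:19696109-19699188), a lipid carrier, ran from 110 to 236 CPM in controls with a median of 138, and from 129 to 339 CPM after surgery with a median of 159. Surgery replicates 1, 4 and 6 lay above every control (0.39 ± 0.24). Clec7a stood at 0.43 with an interval from -0.33 to 1.19, and Cst7 at 0.47 with an interval from -0.25 to 1.19. Trem2 and Tyrobp, the receptor and adaptor through which the state is induced, stood at -0.04 and 0.03.

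**Figure D5:**
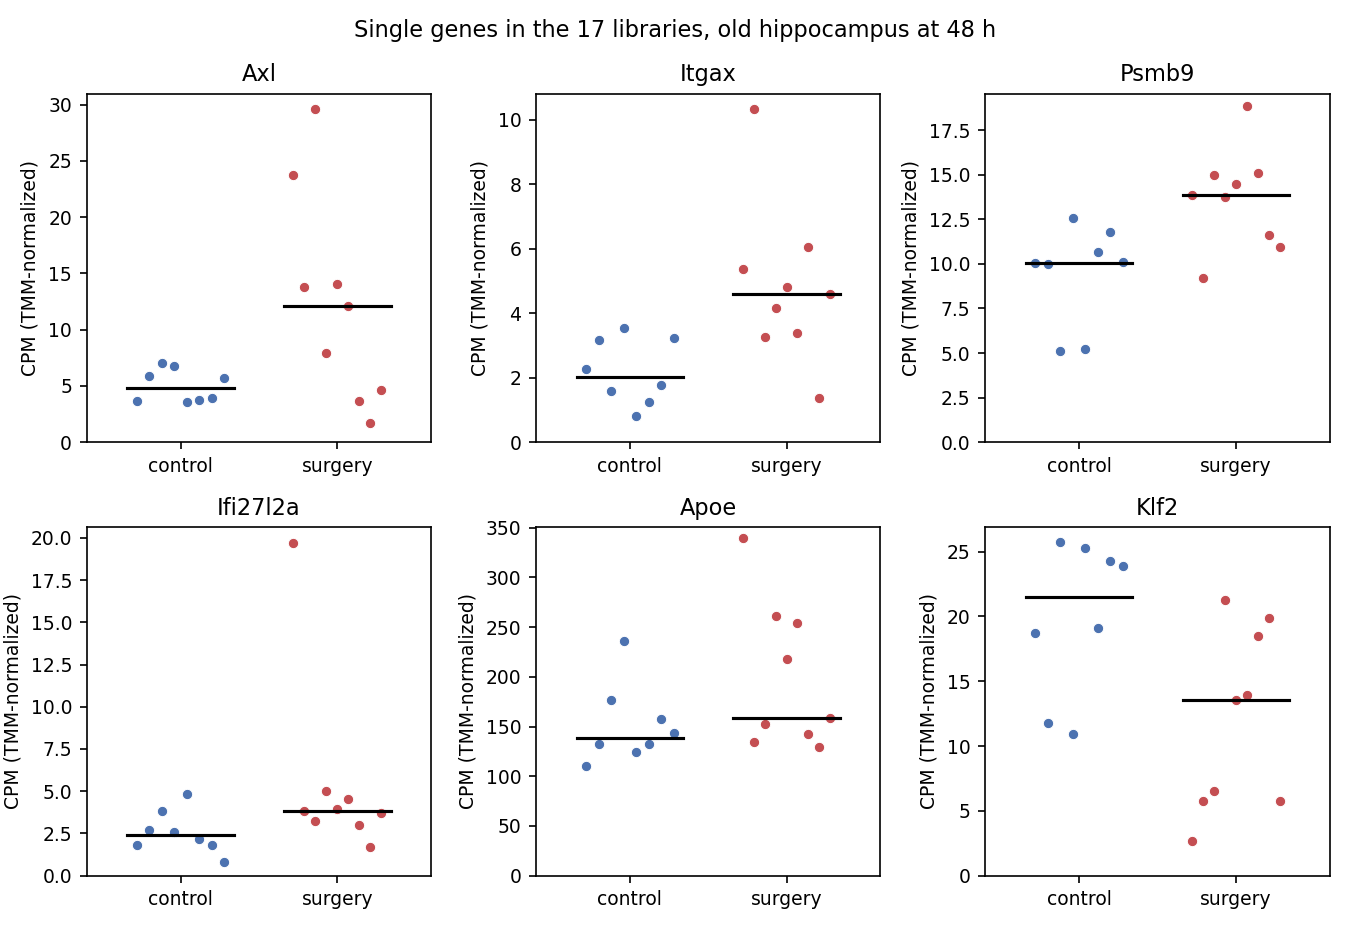
TMM-normalized CPM (y axis, from 0) of Axl, Itgax, Psmb9, Ifi27l2a, Apoe and Klf2 in each of the 8 control (blue) and 9 surgery (red) hippocampus libraries at 48 h, in replicate order from left to right, with group medians as black lines. In all 6 genes the groups overlap, and for Ifi27l2a surgery replicate 1 stands alone at 19.7 CPM.

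Interferon-stimulated genes lay at a median of 0.13 with 13 of 15 tested members above 0, beside 49% of all genes tested. The median was -0.01 without surgery replicate 1 and 0.22 without surgery replicate 3. Ifi27l2a (chr12:103442167-103443680), a small interferon-induced membrane protein, ran from 0.809 to 4.82 CPM in controls with a median of 2.39. After surgery it stood at 19.7 CPM in replicate 1 and between 1.71 and 5.00 CPM in the others. Its log2 fold change of 1.03 ± 0.42, with an unadjusted p below 0.05, was 0.48 without surgery replicate 1. Ifit3, which acts against viral RNA, stood at 20.6 CPM in that library and at most 7.50 CPM in the other 8 (0.74 ± 0.43). The hemisphere library of the same animal had 8.71 CPM of Ifi27l2a and 7.31 CPM of Ifit3, inside the range of the controls.

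Antigen presentation genes lay on both sides of 0. Of 22 members 21 were tested and 15 lay above 0, beside 49% of all genes tested. The median was 0.10, or between 0.05 and 0.07 without any 1 of surgery replicates 7 and 8 and control replicates 3, 5 and 6. Psmb9 (chr17:34181987-34187764), a subunit of the immunoproteasome that cuts peptides for class I molecules, had medians of 10.1 and 13.9 CPM, and 6 of 9 surgery libraries lay above all controls (0.53 ± 0.22, unadjusted p below 0.05). H2-K1, a class I heavy chain, stood at 0.11 with an interval from -0.36 to 0.58. The class II genes H2-Aa (-0.69 ± 0.43), H2-Ab1 (-0.58) and H2-Eb1 (-0.88), and Cd74 (-0.52), the chain that chaperones class II molecules, lay below 0. None of those 4 had an unadjusted p below 0.05.

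In the remaining programmes single members had an unadjusted p below 0.05. Smad7, the inhibitor that TGF-beta induces against its own signal, had medians of 13.6 and 10.4 CPM with 4 surgery libraries below all controls (-0.57 ± 0.19), and stood at -0.58 in the hemisphere. Itgav, an integrin chain that frees TGF-beta from its latent form, stood at -0.47 ± 0.20. Lss, lanosterol synthase of the cholesterol pathway, had medians of 11.2 and 6.04 CPM and a control library at 28.6 CPM (-0.98 ± 0.28). Sdha, the flavoprotein of respiratory complex II, had medians of 26.6 and 39.1 CPM (0.49 ± 0.18). Traf6, a ubiquitin ligase of toll-like receptor signalling, stood at 0.52 ± 0.21, Jak2, a cytokine receptor kinase, at -0.58 ± 0.25, and C4b, complement component 4, at 1.43 ± 0.67 on a mean of 4.25 control counts. Cell cycle, senescence, ribosomal, glycolysis, lipid efflux and autophagy lists held no such member. Cdkn1a, a senescence gene, had an interval from -0.42 to 0.50.

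By rule 12 genes in each direction were taken, Sdha and Klf2 of the lists among them, those with the smallest unadjusted p among genes whose mean log2 CPM reached 4. Wdfy1 (chr1:79702262-79776143), an endosomal adaptor of toll-like receptors, ran from 5.62 to 16.6 CPM in controls with a median of 13.8, and from 15.6 to 29.1 CPM after surgery with a median of 22.4. 8 of 9 surgery libraries lay above every control (0.75 ± 0.23). Lcp1 (chr14:75131101-75230842), the actin-bundling protein of leukocytes, had medians of 111 and 134 CPM with 6 of 9 surgery libraries above all controls. Its interval ran from 0.08 to 0.53. Alg5, an enzyme of glycan assembly, had 7 of 9 surgery libraries above all controls (0.38 ± 0.14). The others on the higher side were Zfp638, Ank2, Gtpbp1, Ankfy1, Scamp1, Sdha, Ldah, Apobec3 and Ergic2, with log2 fold changes from 0.36 to 0.97.

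On the lower side, Ppp2ca (chr11:52098681-52127778), the catalytic subunit of protein phosphatase 2A, had medians of 18.6 and 11.2 CPM with 7 of 9 surgery libraries below all controls (-0.59 ± 0.18). Gnas, the stimulatory G protein that couples receptors to cAMP, also had 7 of 9 below all controls, with medians of 20.6 and 16.2 CPM (-0.41 ± 0.16). Naa16, an acetyltransferase subunit, had the smallest p of these genes, and 7 of its 8 controls spread from 13.9 to 69.0 CPM with the other higher still, while surgery libraries ran from 11.7 to 34.8 CPM (-1.21 ± 0.34). The remaining 9 were Rgmb, Vars, Serbp1, Usf1, Kpnb1, Asap1, Zfp691, Uggt1 and Klf2, from -0.85 to -0.46. All 24 genes had a BH of at least 0.9999. Their intervals and counts of libraries outside the control range come from the values by which the genes were picked, so they are no separate support.

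The surgery effect was then set against that of the other region and age. Hippocampus minus hemisphere, with the animal as a block, gave 0 called of 11007 genes (344, or 3.13%, at an unadjusted p below 0.05, edgeR), and DESeq2 and voom also gave 0. The old hemisphere at 48 h itself had 0 called of 12250 genes and 718 (5.86%) at an unadjusted p below 0.05. Old minus young in the hippocampus at 48 h gave 0 called of 11985 genes and 634 (5.29%) at an unadjusted p below 0.05, with 4 young animals in each group. In young hippocampus the immediate early list had a median of -0.07 and the interferon list -0.43, against -0.31 and 0.13 in old. The young animals at 48 h all had sort numbers of up to 90. In that range the old immediate early list had mean levels of 5.52 log2 CPM in controls and 5.53 after surgery. Without surgery replicate 1 the old interferon median was -0.01. No test of age was run on these medians.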

How the data were processed

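The tables deposited by the authors hold whole-number values for Ensembl gene models with a column for every library, treated as estimated counts because the counter is not named. Per the submitters' processing notes the build was mm10 and R 4.2.1 and DESeq2 1.36.0 were used. The aligner, strand setting and annotation release were not given in the sources used here. Of 54532 gene identifiers 54495 matched the GENCODE annotation of that build.

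The 4 groups of the hippocampus 48 h table (old and young, surgery and control) were fitted together with edgeR 4.0.16 in R 4.3.3: TMM normalization, filterByExpr at a minimum count of 10, robust quasi-likelihood F-test, contrast of old surgery minus old control, BH threshold 0.05. The SE is the absolute log2 fold change divided by the square root of the F statistic of that fit. The 95% intervals are built from this SE with the t distribution, so both are approximate. The script was tested on simulated data. Tests of a difference used both regions with the animal (sort number) as a block, all 8 hippocampus groups, or both ages. Alternatives were DESeq2 1.42.0, limma 3.58.1 voom, other normalizations, filters, sort-number ranges and leave-one-out fits. The 6 h fit without the 4 stepped libraries was added after its values were seen.

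The comparison, the 24 programme lists, the 13 marker lists and the rules were chosen with earlier results of these data known. Named genes were any called gene, the 12 per direction with the smallest unadjusted p among genes whose mean log2 CPM reached 4 (no predicted, Rik or mitochondrial symbols), list members with an unadjusted p below 0.05, and a panel of 25 genes. Other genes were picked after their values were seen. Replicates are separate animals by their sort numbers.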

Additional observations from a re-analysis of the deposited data

Results flagged for a closer look

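A library was noted where its distance to the nearest other library of its group was large for a group of that size (Dixon's criterion). Of 166 gene and list series examined 11 gave such a value, and chance gives about 1 in 20. All values are log2 CPM, and no cause was tested.

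Surgery replicate 1 was the highest of 9 surgery libraries for the interferon-stimulated list at 3.77 (next 2.86), for Ifi27l2a, an interferon-induced membrane protein, at 4.351 (next 2.514), and for Ifit3, an antiviral RNA-binding protein, at 4.413 (next 3.037). The same library was the highest for the cell cycle list at 3.722 (next 3.129) and for the complement and Fc receptor list at 6.644 (next 6.43). In the hemisphere of that animal the interferon list stood at 3.01, among controls from 2.75 to 3.55.

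Surgery replicate 3 was the lowest for Asap1, a regulator of ARF GTPases, at 3.247 (next 4.21) and for Cdkn1a, the cell cycle inhibitor p21, at 3.144 (next 4.322). Surgery replicate 5 was the highest for Lcp1 at 7.409 (next 7.156) and surgery replicate 8 for the senescence list at 4.076 (next 3.79). Control replicate 5 was the lowest of the 8 controls for the complement and Fc receptor list at 5.546 (next 6.062) and for the ribosomal protein list at 5.494 (next 5.723).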

How the results depend on the processing

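The count of 0 called genes in the surgery comparison held with DESeq2, voom, other normalizations, without a filter and with a stricter one, with the old groups alone, within either range of sort numbers and without each of the 17 libraries. The number at an unadjusted p below 0.05, 432, was 2221 with no filter on low counts, 218 with the stricter filter, 742 with only sort numbers up to 90, and 386 to 530 without single libraries. Hippocampus minus hemisphere gave 46 called genes with no filter on low counts, at a median log2 CPM of 2.34. The contrast of 48 h minus 6 h gave 6 with DESeq2, 1 with voom and 5 with only the 4 old groups. Left-out libraries gave 0 to 0 calls in each of the 3 tests of a difference. The cause was not tested.

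Same-numbered control and surgery libraries come from different animals, and their deviations correlated at -0.16 to 0.29 over 8 pairs, 4 of them above 0.1. Of 8 controls 3 correlated best with their own number, so the numbers were not taken to pair them. The hippocampus and hemisphere libraries of 1 animal correlated at -0.28 to 0.35 in the same check, with a median of -0.05. Of these 17 pairs 4 lay above 0.1. The animal was kept as a block between regions because of the design, not because of shared deviations. With the replicate block the counts were 0 called and 302 at an unadjusted p below 0.05, and 0 called in the contrasts between times and ages.

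Of the 59 named genes tested, 45 kept their sign in all 28 alternatives. Sort numbers up to 90 turned the sign of 11 of 58 genes and of 10 of 25 list medians. Those of 93 and above turned 3 of 56 genes and 9 of 25 list medians. Genes with few counts carry wide intervals, as given beside them.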
